A study of Mus musculus with 4 samples.

Results

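The enzymes of nucleotide and one-carbon synthesis described here are 9 genes: *Shmt1*, *Shmt2*, *Mthfd1*, *Mthfd1l*, *Mthfd2*, *Tyms*, *Tk1*, *Rrm1* and *Rrm2*. They were taken by gene symbol from a table of 15466 genes measured by RNA-seq in 4 libraries of CD8 T cells from mouse spleen, and all 9 were in it. All mice were C57BL/6: control mice, labelled wild type, with PBS as the stated treatment, and mice dosed 4 times per week with IL-15C, in which IL-15 is bound to its receptor chain IL-15Ra. Splenic CD8 T cells, enriched with magnetic beads, were sorted on surface CD44 and CD49d: naive cells lacked both, and virtual memory cells were CD44hi and lacked CD49d. Virtual memory cells are CD8 T cells of memory phenotype that form without exposure to foreign antigen. There was 1 library for each of 4 groups: naive and virtual memory cells from control mice, and both subsets from IL-15C mice. Titles of the samples state 3 mice for a group, and the sources used here give neither the pooling of mice nor their age.

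Dividing cells need deoxynucleotides to copy their DNA and folate-bound carbon units to build purines and thymidylate. The carbon unit comes mostly from serine, which the serine hydroxymethyltransferases SHMT1 (cytosol) and SHMT2 (mitochondria) cleave, and the MTHFD enzymes interconvert its folate carriers: MTHFD2 and MTHFD1L in mitochondria and MTHFD1 in the cytosol. Thymidylate synthase (TYMS) spends this unit to make dTMP, thymidine kinase 1 (TK1) recovers thymidine from outside the cell, and ribonucleotide reductase, built of the large subunit RRM1 and a small subunit RRM2 or RRM2B, makes the deoxynucleotides. RRM2, TK1 and TYMS are known for abundance around S phase, and SHMT2 and MTHFD2 for induction when T cells are activated.

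Each library held 43862816 to 48950547 reads assigned to genes. The T cell genes *Cd3e* (609.9 to 733 TPM, a level scaled to transcript length and library size) and *Cd8a* (581 to 892 TPM) were high in all 4 libraries. *Cd44* was at 3.88 TPM in control naive, 101 in control virtual memory, 6.56 in IL-15C naive and 94.3 in IL-15C virtual memory cells, so the gate was visible in both treatments. *Itga4*, which encodes the CD49d chain absent from the surface of all sorted cells, was detected in every library, at 124, 68.5, 49.9 and 8.92 TPM in the same order. Transcripts of dendritic, B and CD4 T cells were highest in the control virtual memory library. On the CPM scale, which is the count scaled to library size with TMM factors, 4 dendritic cell genes summed to 179.7 there against 4.66 to 32.3 in the other libraries. The 3 B cell genes summed to 52.1 against 13.7 to 16.8, and the 3 CD4 and regulatory T cell genes to 20.7 against 2.56 to 5.74. Of 3 macrophage genes, *Csf1r* and *Lyz2* were also highest in control virtual memory cells, at 4.44 and 2.61 CPM against at most 0.187 and 0.374 elsewhere, whereas *Cd68* was highest in IL-15C virtual memory cells, at 12.1 CPM against 1.58 to 3.71. Their sum was 10.8 in control and 12.5 in IL-15C virtual memory cells, and 1.76 to 3.13 in naive cells. The 3 erythroid and platelet genes summed to 1.49 to 5.16, highest in control virtual memory cells. The 4 NK cell genes, some of which virtual memory cells express, summed to 39.1 in control naive, 233 in control virtual memory, 106 in IL-15C naive and 392 in IL-15C virtual memory cells. Most of each sum was *Eomes*, at 38.5, 219, 105 and 365 CPM in the same order. *Klrb1c*, *Tyrobp* and *Fcer1g* were each at most 0.506 CPM in naive cells. They were at 8.28, 2.83 and 3.46 CPM in control and 20.7, 3.34 and 2.94 in IL-15C virtual memory cells. The part of cells other than CD8 T cells in the levels below was not tested. Among the marker genes looked for, *Ms4a1*, *Pax5*, *Ebf1*, *Adgre1*, *S100a8*, *S100a9*, *Siglech*, *Xcr1*, *Cd4*, *Cd40lg*, *Ncr1*, *Alas2* and *Pf4* were not analysed here, since the table lists genes with at least 1 read in every library.

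The 9 genes divided into a group whose level differed greatly between libraries and a group whose level differed less. *Rrm2*, *Tk1*, *Tyms* and *Rrm1* together made up 26.2 TPM in control naive, 87.3 in control virtual memory, 377 in IL-15C naive and 905 in IL-15C virtual memory cells. *Shmt1*, *Shmt2*, *Mthfd1*, *Mthfd1l* and *Mthfd2* together made up 229.7, 242, 269 and 401 TPM in the same libraries. The folate enzymes were therefore the larger share of the 9 in both control libraries, and the deoxynucleotide enzymes the larger share in both IL-15C libraries. From control naive to IL-15C virtual memory cells, the normalised read count was 143-fold higher for *Rrm2*, 137-fold for *Tk1*, 27.1-fold for *Tyms* and 15.6-fold for *Rrm1*. The same step was 3.79-fold for *Mthfd2*, 3.07-fold for *Shmt1*, 1.89-fold for *Mthfd1*, 1.69-fold for *Shmt2* and 1.64-fold for *Mthfd1l*. In these bulk libraries, a larger share of cells that hold a transcript and more of it in each cell cannot be told apart.

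**Figure D1:**
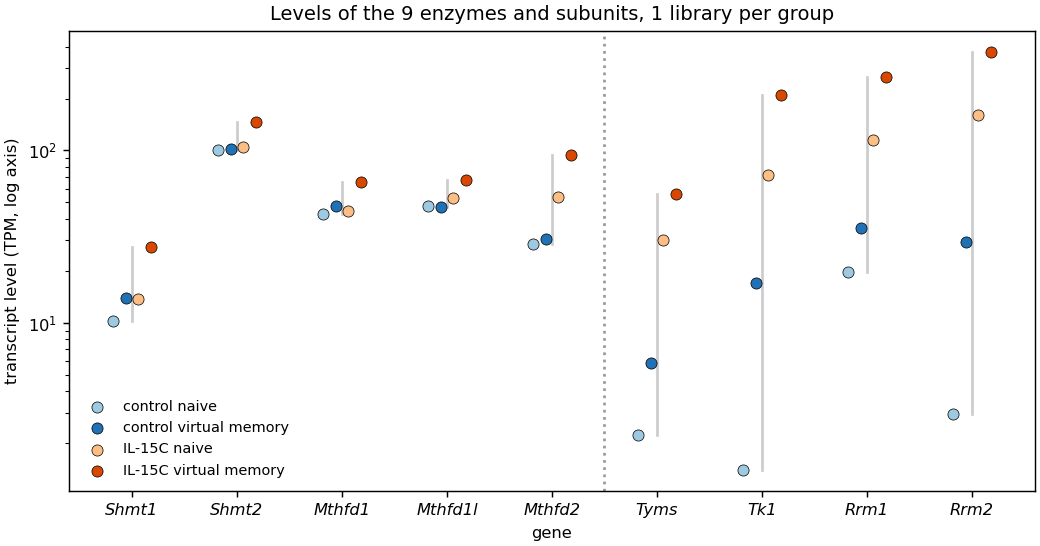
Level of each of the 9 genes in TPM (log axis) in the 4 libraries, with 1 point per library and a grey line spanning the 4 points of a gene; the dotted line separates the folate enzymes (left) from the deoxynucleotide and thymidylate enzymes (right). The points of Rrm2 run from 2.96 to 372 TPM and those of Shmt2 from 101 to 147 TPM.

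Ordered by CPM, all 9 genes ran from control naive through control virtual memory and IL-15C naive to IL-15C virtual memory cells. Neighbouring libraries in that order differed by more than counting error for every gene except *Mthfd1l*, whose control libraries were at 88.2 and 90.6 CPM. On the TPM scale the order was less uniform: *Shmt1* and *Mthfd1* were slightly higher in control virtual memory than in IL-15C naive cells, and *Mthfd1l* was slightly higher in control naive than in control virtual memory cells.

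*Rrm2*, the small subunit made for DNA synthesis (chromosome 12, 24708254 to 24714146, plus strand, on GRCm38.p6 as for all positions given), showed the widest span. Its level was 2.96 TPM in control naive, 29.3 in control virtual memory, 161 in IL-15C naive and 372 in IL-15C virtual memory cells, from 165, 1490, 9399 and 20139 reads. Both IL-15C libraries were above both control libraries, and within each treatment virtual memory cells were above naive cells. Differences are given below as log2 ratios of TMM-scaled counts with exact 95% counting intervals. These cover counting error only and leave out the spread between mice, since each group had 1 library. They also treat every read as separate, although PCR copies cannot be told from separate molecules without molecular identifiers. With 1 library per group there was no test and no p-value, and genes were counted as higher or lower if the ratio was 2-fold or more and all of its interval lay past 2-fold. By that rule *Rrm2* was higher with IL-15C in naive cells (log2 ratio 5.98, interval 5.77 to 6.23) and in virtual memory cells (3.82, 3.74 to 3.90). It was also higher in virtual memory than in naive cells, by 3.34 (3.13 to 3.60) in control mice and 1.18 (1.15 to 1.22) in IL-15C mice.

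*Rrm1*, the large catalytic subunit (chromosome 7, 102441695 to 102469771, plus strand), stood at 19.7 TPM in control naive, 35.2 in control virtual memory, 114 in IL-15C naive and 266 in IL-15C virtual memory cells. It was already well expressed where *Rrm2* was almost absent: the *Rrm1* level in control naive cells was 6.65 times that of *Rrm2*, and 0.716 times in IL-15C virtual memory cells. IL-15C was associated with higher *Rrm1* in naive cells (log2 ratio 2.77, 2.71 to 2.84) and in virtual memory cells (3.07, 3.02 to 3.12). Between subsets, *Rrm1* was higher in the virtual memory cells from IL-15C mice (1.19, 1.16 to 1.22), while in control mice its ratio of 0.89 (0.82 to 0.98) lay just short of 2-fold.

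The other small subunit, RRM2B, serves DNA repair and mitochondrial DNA synthesis outside S phase and is a p53 target. *Rrm2b* ran opposite to *Rrm2*, with 20.4 TPM in control naive, 18.4 in control virtual memory, 11.1 in IL-15C naive and 6.50 in IL-15C virtual memory cells. It was lower with IL-15C in virtual memory cells (log2 ratio -1.33, -1.46 to -1.21), and its ratio in naive cells was -0.63 (-0.73 to -0.54). *Rrm2b* thus exceeded *Rrm2* 6.88-fold in control naive cells, whereas *Rrm2* exceeded *Rrm2b* 1.59-fold in control virtual memory, 14.5-fold in IL-15C naive and 57.2-fold in IL-15C virtual memory cells. Set against both small subunits together, the large subunit varied less: *Rrm1* was at 0.843, 0.739, 0.666 and 0.704 times the summed TPM of *Rrm2* and *Rrm2b*.

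*Tk1* (chromosome 11, 117815519 to 117826087, minus strand) had the lowest level of the 9 genes in control naive cells and the third highest in IL-15C virtual memory cells. Its level was 1.40 TPM in control naive, 17.1 in control virtual memory, 71.7 in IL-15C naive and 211 in IL-15C virtual memory cells, from 48, 475, 2161 and 5776 reads. The 4 libraries were far apart, and the control naive value rested on the fewest reads of any member. With IL-15C, *Tk1* was higher in naive cells (log2 ratio 5.59, 5.24 to 6.10) and in virtual memory cells (3.66, 3.53 to 3.81). Between subsets it was higher in virtual memory cells by 3.43 (3.06 to 3.95) in control mice and 2.83-fold (log2 interval 1.43 to 1.58) in IL-15C mice. *Rrm2* and *Tk1* kept a narrow ratio, with *Rrm2* at 2.12, 1.71, 2.24 and 1.77 times *Tk1* in TPM across the libraries. *Tk2*, the mitochondrial thymidine kinase, was at 40.1, 41.0, 28.5 and 18.1 TPM in the same order of libraries. It was lower with IL-15C in virtual memory cells (-1.14, -1.24 to -1.03), and its ratio in naive cells was -0.24 (-0.32 to -0.16). *Tk2* exceeded *Tk1* in both control libraries, 28.7-fold in naive and 2.40-fold in virtual memory cells, and *Tk1* exceeded *Tk2* in both IL-15C libraries, 2.52-fold and 11.6-fold.

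**Figure D2:**
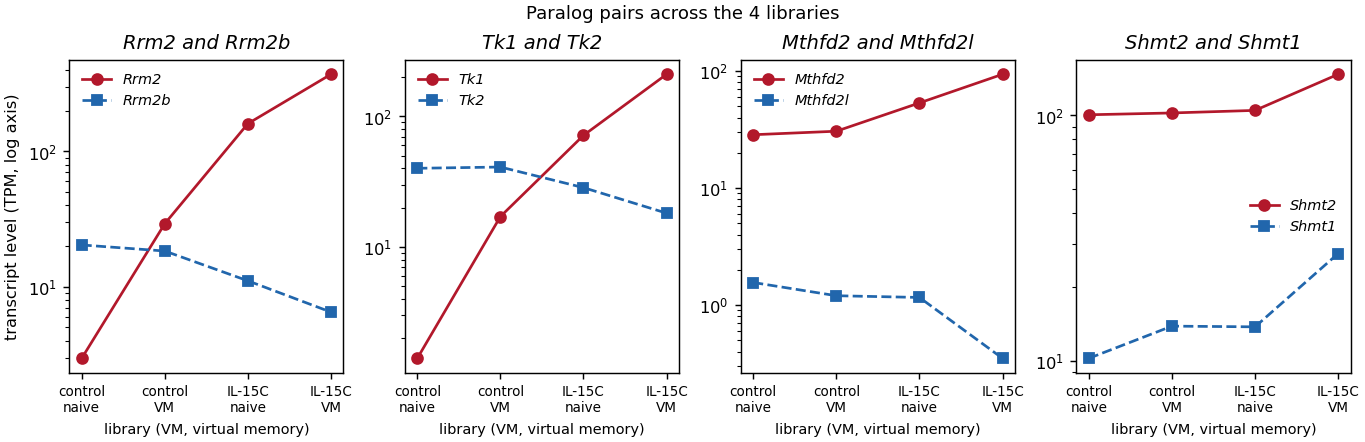
Levels in TPM (log axes) of 4 pairs of related enzymes or subunits in the 4 libraries, 1 point per library, with lines joining the points of a gene. Rrm2 and Tk1 cross Rrm2b and Tk2 from left to right, while Mthfd2 and Shmt2 stay above Mthfd2l and Shmt1 in every library.

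*Tyms*, which makes thymidylate from dUMP (chromosome 5, 30038546 to 30073645, minus strand), was at 2.22 TPM in control naive, 5.79 in control virtual memory, 30.1 in IL-15C naive and 56.1 in IL-15C virtual memory cells. Its control levels were both low, and the IL-15C libraries stood clearly above them. Its log2 ratio with IL-15C was 3.82 (3.63 to 4.04) in naive cells and 3.32 (3.20 to 3.46) in virtual memory cells, both counted as higher. In control mice *Tyms* was higher in virtual memory than in naive cells (1.43, 1.21 to 1.68), and in IL-15C mice the ratio was 0.94 (0.87 to 1.01), which fell short of the rule. A processed pseudogene of *Tyms* is annotated, and the sources used here do not say how reads shared with it were counted.

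*Mthfd2*, a mitochondrial dehydrogenase and cyclohydrolase (chromosome 6, 83305704 to 83326011, minus strand), was the folate enzyme that differed most with IL-15C. Its level was 28.5 TPM in control naive, 30.6 in control virtual memory, 53.4 in IL-15C naive and 93.7 in IL-15C virtual memory cells. The control libraries were close together and the IL-15C libraries above both. With IL-15C it was higher in naive cells (log2 ratio 1.14, 1.05 to 1.23) and in virtual memory cells (1.77, 1.68 to 1.85). Its subset ratios were 0.15 (0.05 to 0.26) in control mice and 0.78 (0.72 to 0.85) in IL-15C mice. The call in naive cells was close to the limit, since ratios of library totals or of TPM left it out. *Mthfd2l*, the related mitochondrial enzyme, was scarce in all libraries, at 1.56, 1.20, 1.16 and 0.351 TPM from 97, 78, 77 and 23 reads. It was lower with IL-15C in virtual memory cells (-1.62, -2.44 to -1.01).

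*Shmt2*, the mitochondrial serine hydroxymethyltransferase (chromosome 10, 127517123 to 127522444, minus strand), was the most abundant of the 9 genes in both control libraries, at 101 TPM in naive and 102 in virtual memory cells. It was at 105 TPM in IL-15C naive and 147 in IL-15C virtual memory cells, so that 3 libraries were nearly level in TPM and 1 was higher. On the CPM scale *Shmt2* was less level, at 116 in control naive, 123 in control virtual memory, 143 in IL-15C naive and 196 in IL-15C virtual memory cells. Its log2 ratio with IL-15C was 0.29 (0.24 to 0.35) in naive and 0.68 (0.63 to 0.73) in virtual memory cells. *Mthfd1l*, which releases formate from mitochondrial folate (chromosome 10, 3972892 to 4167081, plus strand), had a similar profile at 47.3, 46.9, 53.0 and 67.3 TPM, with IL-15C ratios of 0.40 (0.34 to 0.46) in naive and 0.67 (0.62 to 0.73) in virtual memory cells. Neither gene met the 2-fold rule in any comparison. *Mthfd1*, the trifunctional cytosolic enzyme (chromosome 12, 76254406 to 76319820, plus strand), was at 42.9 TPM in control naive, 47.8 in control virtual memory, 44.4 in IL-15C naive and 65.2 in IL-15C virtual memory cells, with IL-15C ratios of 0.28 (0.22 to 0.35) in naive and 0.71 (0.65 to 0.77) in virtual memory cells. *Mthfd2* was below *Mthfd1* in the control libraries, at 0.665 and 0.639 times its TPM, and above it in the IL-15C libraries, at 1.20 and 1.44 times.

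*Shmt1*, the cytosolic serine hydroxymethyltransferase (chromosome 11, 60788897 to 60811265, minus strand), was the least abundant of the 5 folate enzymes in every library, at 10.3 TPM in control naive, 13.9 in control virtual memory, 13.8 in IL-15C naive and 27.4 in IL-15C virtual memory cells. The IL-15C virtual memory library stood above the other 3. Its log2 ratio with IL-15C was 0.66 (0.50 to 0.82) in naive cells and 1.13 in virtual memory cells, where the interval of 0.999 to 1.27 reached just below 2-fold, so it was not counted as higher. *Shmt2* remained the more abundant of the pair, at 9.80, 7.37, 7.60 and 5.37 times the TPM of *Shmt1*. Exons of *Smcr8* on the opposite strand cover 184 of the 3883 annotated exon bases of *Shmt1*, and the sources used here do not say whether strand was used in counting. Such overlaps are smaller for *Tk1* (1.60%), *Shmt2* (1.03%) and *Mthfd1* (0.833%), and were not found for the other 5 genes.

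Promoter sequences are shown for 5 genes that span the range of responses. These genes run from *Rrm2* and *Rrm1*, whose products form 1 enzyme, through *Tyms* and *Mthfd2* to *Shmt2*, nearly level in 3 libraries in TPM. The sequences are written 5′ to 3′ on the gene's strand, without annotated exon bases. They are the RefSeq sequences of GRCm38.p6 within 250 bases before 1 transcript start per gene, as the RefSeq promoter table sets it. That start lies inside the gene span given above for *Mthfd2* and *Mthfd1*, whose whole windows fall within their spans. It also lies inside the span of *Tyms*, *Tk1* and *Mthfd1l*, whose windows fall within their spans in part. Capitals mark matches to 6 motifs searched on both strands: E2F (TTTCCCGC, TTTCGCGC, TTTGCCGC or TTTGGCGC), the CCAAT box (CCAAT), the cell-cycle homology region or CHR (TTTGAA or TTCGAA), the E-box (CACGTG), the ATF4 element (TGATGNAA) and the GC box (GGGCGG). A match is a description of the letters, not a binding site.
Rrm2 (chr12:24708004-24708240, plus strand): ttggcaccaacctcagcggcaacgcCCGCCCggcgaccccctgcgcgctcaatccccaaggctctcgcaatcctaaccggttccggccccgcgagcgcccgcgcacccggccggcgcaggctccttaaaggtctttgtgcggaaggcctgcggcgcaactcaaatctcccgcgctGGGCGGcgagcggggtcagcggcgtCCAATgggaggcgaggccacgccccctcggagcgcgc
Rrm1 (chr7:102441445-102441694, plus strand): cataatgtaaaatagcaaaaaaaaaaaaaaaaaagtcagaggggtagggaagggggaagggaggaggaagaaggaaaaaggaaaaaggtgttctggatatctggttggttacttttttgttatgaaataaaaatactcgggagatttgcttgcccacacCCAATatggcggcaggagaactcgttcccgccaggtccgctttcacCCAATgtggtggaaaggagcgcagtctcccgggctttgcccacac
Tyms (chr5:30073646-30073875, minus strand): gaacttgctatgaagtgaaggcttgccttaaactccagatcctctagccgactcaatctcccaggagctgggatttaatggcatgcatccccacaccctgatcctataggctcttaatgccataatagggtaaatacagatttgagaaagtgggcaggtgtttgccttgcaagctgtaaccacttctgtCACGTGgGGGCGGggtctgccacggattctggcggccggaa
Mthfd2 (chr6:83317607-83317854, minus strand): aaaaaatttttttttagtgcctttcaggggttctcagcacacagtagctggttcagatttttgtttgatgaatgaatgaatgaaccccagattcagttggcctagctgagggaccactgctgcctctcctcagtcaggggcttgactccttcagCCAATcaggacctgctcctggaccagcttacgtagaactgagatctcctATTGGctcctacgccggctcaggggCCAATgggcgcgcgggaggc
Shmt2 (chr10:127522445-127522694, minus strand): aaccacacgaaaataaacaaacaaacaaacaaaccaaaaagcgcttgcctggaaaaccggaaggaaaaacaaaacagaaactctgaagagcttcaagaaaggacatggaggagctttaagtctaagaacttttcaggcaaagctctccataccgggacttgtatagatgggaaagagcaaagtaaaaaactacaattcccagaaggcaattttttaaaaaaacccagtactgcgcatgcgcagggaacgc

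The motifs fell in different places. *Rrm2* holds 1 CCAAT word at -50 to -46, counted from the start site, with GC boxes at -75 to -70 and -225 to -220. *Rrm1* holds CCAAT words at -91 to -87 and -45 to -41, and *Mthfd2* holds 3, at -96 to -92, -47 to -43 and -22 to -18. *Tyms* holds an E-box at -61 to -56 beside a GC box at -54 to -49, and the *Shmt2* stretch holds none of the motifs. Over the 300 bases from 250 before to 50 after the start, 5 of the 9 members hold a CCAAT box against 37.4% of 32851 promoters, and 6 of 9 hold a GC box against 35.7%. An E-box is held by 1 of 9 (*Tyms*), against 7.15% of all promoters. The E2F words (2.26% of all promoters), the CHR words (19.2%) and the ATF4 element (3.97%) have no match in the 9, which says only that these letters are not in these windows. Of 16 replication genes with a promoter in the table, 9 hold an E2F word and 11 a CCAAT box. The *Rrm2* window is also rich in G and C, at 72.4% with 34 CpG dinucleotides, against a median of 52.4% and 6 over all promoters, whereas *Shmt2* is at 40.8% with 7.

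In control mice, 3 of the 4 deoxynucleotide enzymes met the 2-fold rule between subsets, and the folate enzymes differed little. The ratio of *Rrm1*, 0.89 (0.82 to 0.98), lay just short of the rule. *Tk1*, *Rrm2* and *Tyms* were higher, which is 3 of the 9 genes, against 4.81% of 12259 genes compared that were higher and 1.11% that were lower. The 5 folate genes had log2 ratios of 0.04 to 0.49. The median over the 9 was 0.49, and 0.01 over all genes compared. This comparison rests on the control virtual memory library, in which the markers of B, dendritic and CD4 cells given above were highest; the dendritic cell genes there summed to 179.7 CPM and the 4 deoxynucleotide members to 129.

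In IL-15C mice, the same subset comparison gave smaller ratios for *Tk1* and *Rrm2* and larger ones for the folate enzymes. *Tk1*, *Rrm1* and *Rrm2* were higher in virtual memory cells, again 3 of 9, where 6.52% of 12206 genes were higher and 5.91% lower. *Shmt1* had a ratio of 0.96 (0.84 to 1.09), *Mthfd2* 0.78, *Mthfd1* 0.63, *Shmt2* 0.46 and *Mthfd1l* 0.32. The median of the 9 was 0.94 against -0.01 over all genes.

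With IL-15C, naive cells carried more transcript of every deoxynucleotide member. *Rrm2*, *Tk1*, *Tyms*, *Rrm1* and *Mthfd2* were higher, 5 of the 9 genes, where 4.95% of 12174 genes were higher and 1.99% lower. *Rrm2* had a larger ratio than all but 21 of these genes and *Tk1* than all but 43. The median of the 9 was 1.14 against 0.02 over all genes. In virtual memory cells the same 5 genes were higher, where 8.60% of 12370 genes were higher and 8.83% lower, and the median of the 9 was 1.77 against -0.04. Each library enters more than 1 of these comparisons, so they are not independent of each other. Ratios of the deposited TPM values move the balance of calls over all genes, to 595 higher and 912 lower in place of 603 and 242 in naive cells, and to 1135 and 1930 in place of 1064 and 1092 in virtual memory cells.

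**Figure D3:**
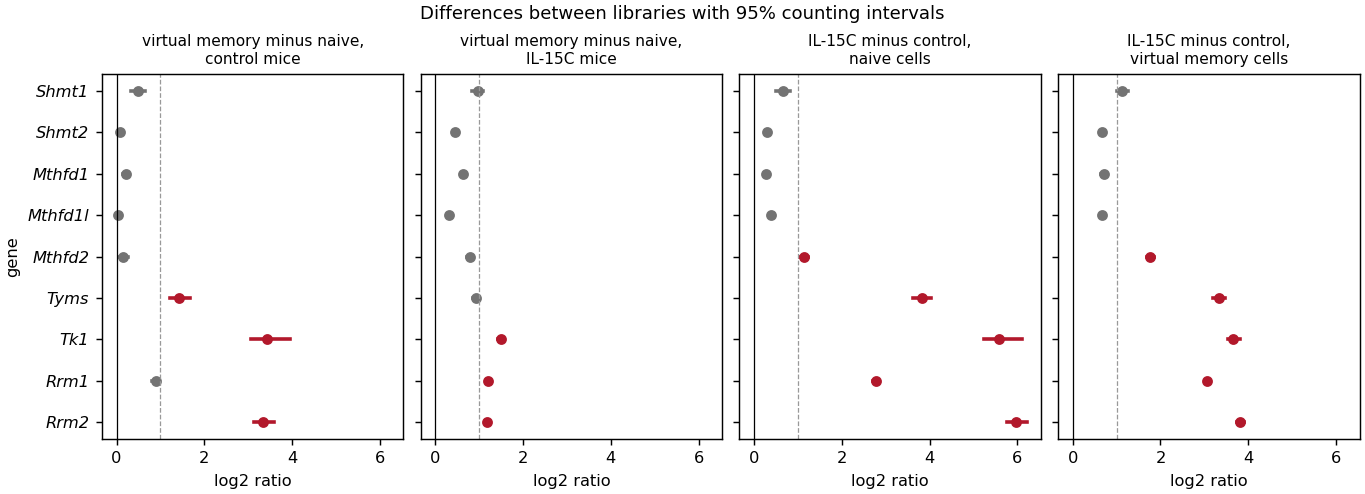
Log2 ratio of TMM-scaled counts for each of the 9 genes in the 4 comparisons, with 95% counting intervals that cover counting error only; red points were counted as higher, grey points were not, and the dashed line marks 2-fold. Red points number 3 in each comparison of subsets and 5 in each comparison of treatments.

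The IL-15C ratio itself differed between subsets in a gene-dependent way. For *Rrm2* the ratio in virtual memory cells was smaller than that in naive cells by a log2 difference of -2.16 (-2.39 to -1.92), and for *Tk1* by -1.93 (-2.36 to -1.49). These genes started higher in control virtual memory than in control naive cells and ended higher as well. For *Tyms* the difference was -0.50 (-0.74 to -0.26). The other 6 members had positive differences: 0.63 (0.51 to 0.75) for *Mthfd2*, 0.47 (0.27 to 0.68) for *Shmt1*, 0.42 (0.34 to 0.51) for *Mthfd1*, 0.38 (0.31 to 0.45) for *Shmt2*, 0.30 (0.21 to 0.38) for *Rrm1* and 0.28 (0.19 to 0.36) for *Mthfd1l*. A difference was counted when it reached 4-fold with its interval beyond that, and 0 of the 9 did, where 0.0555% of 12617 genes had a larger and 0.491% a smaller ratio in virtual memory cells. With 1 library per group, whether these differences exceed the spread between mice was not tested.

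Other genes of deoxynucleotide supply followed in part. Of 15 such genes besides the members, 4 were higher with IL-15C in naive cells and 0 lower, while virtual memory cells had 4 higher and 2 lower, with medians of 0.70 and 0.64. These counts, like those of the lists that follow, stand beside 4.95% of all genes higher and 1.99% lower in naive cells, and 8.60% and 8.83% in virtual memory cells. The 2 of 15 lower are near that background. *Dut*, whose product clears dUTP and yields the dUMP that TYMS uses, had the largest ratios of the list, 2.08 (1.99 to 2.18) in naive and 2.51 (2.44 to 2.60) in virtual memory cells, at 19.7, 27.5, 70.6 and 141 TPM. *Dctpp1*, which hydrolyses dCTP, was higher in both (1.81 and 2.32), as was *Dck*, the deoxycytidine kinase (1.31 and 1.57). *Cmpk2*, a mitochondrial nucleotide kinase also known as an interferon-induced gene, was higher in naive cells (1.23, 1.11 to 1.36), and its ratio in virtual memory cells was 0.56. *Nudt1*, which removes oxidised purine nucleotides, was higher in virtual memory cells (1.81, 1.64 to 2.01), and its ratio in naive cells was 1.09 (0.90 to 1.29). The genes lower in virtual memory cells were *Rrm2b* and *Tk2*. *Samhd1*, which degrades deoxynucleotides in resting cells, was abundant throughout at 219.5, 193, 235 and 175.6 TPM, with IL-15C ratios of 0.34 in naive and 0.02 in virtual memory cells.

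Upstream of the folate enzymes, members of the serine pathway differed among themselves. *Psat1*, the phosphoserine aminotransferase, was at 26.0 TPM in control naive, 38.7 in control virtual memory, 63.4 in IL-15C naive and 151 in IL-15C virtual memory cells. It was higher with IL-15C in naive cells (1.52, 1.43 to 1.61) and virtual memory cells (2.11, 2.04 to 2.18). *Phgdh*, the first enzyme of serine synthesis, was higher in virtual memory cells (1.31, 1.26 to 1.36), with a ratio of 0.75 (0.69 to 0.80) in naive cells. *Psph*, the last enzyme of serine synthesis, had ratios of 0.42 (0.30 to 0.54) in naive and 0.57 (0.45 to 0.69) in virtual memory cells. Of the serine and glycine genes compared, 1 of 6 was higher in naive and 2 of 5 in virtual memory cells, with medians of 0.54 and 0.72. Genes of folate uptake and handling had medians of -0.21 in naive and -0.24 in virtual memory cells. Of those compared, 1 of 12 was higher and 0 lower in naive cells. In virtual memory cells 1 of 11 was higher, and *Mthfd2l* was the gene of that list that was lower. The largest ratios of the list were 3.32 in naive and 2.65 in virtual memory cells. *Gldc*, *Aldh1l2* and *Upp1* were not analysed here.

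In purine synthesis, which uses folate-bound formyl units, *Impdh2*, the enzyme at the branch to GMP, was higher with IL-15C in naive cells (1.12, 1.08 to 1.16) and virtual memory cells (1.42, 1.38 to 1.45), at 169.7, 195, 322 and 496 TPM. *Paics* was higher in virtual memory cells (1.20, 1.16 to 1.24), with 1.02 (0.98 to 1.07) in naive cells. These, 1 in naive and 2 in virtual memory cells, were the genes counted among 12 purine genes compared in naive and 13 in virtual memory cells, whose medians were 0.33 and 0.58. In pyrimidine synthesis, 0 of 5 genes were counted in naive cells, and *Umps*, which makes UMP, was higher in virtual memory cells (1.16, 1.08 to 1.24), with medians of 0.29 and 0.61. With 5 genes, these counts lie near the background shares. Salvage was led by *Hprt*, the hypoxanthine-guanine salvage enzyme, in naive cells (1.16, 1.10 to 1.22; 1 of 9 genes) and by *Ada*, *Pnp* and *Hprt* in virtual memory cells (1.86, 1.17 and 1.07; 3 of 9), with medians of 0.25 and 0.31.

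**Figure D4:**
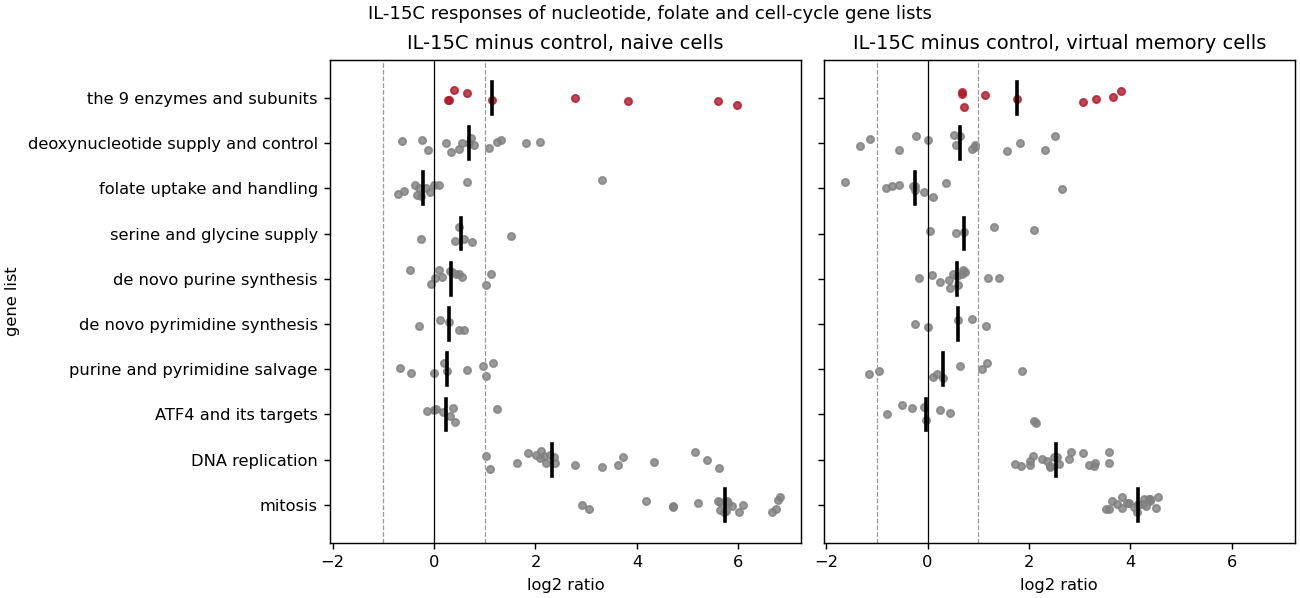
Log2 ratios with IL-15C in naive cells (left) and virtual memory cells (right) for the 9 genes (red) and for other gene lists (grey), 1 point per gene compared, with a black bar at the list median, a solid line at 0 and dashed lines at 2-fold either way. Medians of the nucleotide and folate lists lie between -0.24 and 0.72, and those of the replication and mitosis lists between 2.32 and 5.73.

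Beside genes of DNA replication and mitosis, the 2 groups of members took different places. Of 20 replication genes, 19 were higher with IL-15C in naive cells and 20 in virtual memory cells, with medians of 2.32 and 2.53, and all 20 mitosis genes were higher in both, with medians of 5.73 and 4.14. No replication gene had a larger ratio than *Rrm2* in either subset, and 1 in naive and 0 in virtual memory cells had a larger ratio than *Tk1*. *Tyms* was below 4 and 2 of them and *Rrm1* below 8 and 6. *Mthfd2* was below 18 and 19, and *Shmt1*, *Shmt2*, *Mthfd1* and *Mthfd1l* were below all 20 in both. In total, 40 replication and mitosis genes took 0.0792% of the reads in control naive, 0.158% in control virtual memory, 0.528% in IL-15C naive and 1.21% in IL-15C virtual memory cells, and the 9 members 0.0379%, 0.0483%, 0.101% and 0.185%.

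The genes with the most similar profile differed by member. Profiles were compared among 8804 genes by the root-mean-square difference of log2 CPM over the 4 libraries, each gene centred on its own mean. For *Rrm2* and *Tk1* the nearest gene was *Kif11*, a mitotic kinesin, at 0.0708 and 0.128 log2 units, and only 3 genes lay nearer to *Tk1* than *Rrm2* did (0.179). *Tyms* was nearest to *Gins2*, a subunit of the replicative helicase (0.0471), and *Rrm1* to *Recql4*, a helicase (0.0447). Among the genes nearest to *Mthfd2* were *Nudt1* (0.0308) and *Cdt1*, the replication licensing factor (0.0430). *Shmt2* was nearest to *Ndufa7*, a complex I subunit (0.0134), *Mthfd1* to *Riok1* (0.00800), *Mthfd1l* to *Zfp414* (0.0136) and *Shmt1* to *Thoc6* (0.0309). With 4 libraries many genes lie this near, and such likeness is a description: 113 genes lay nearer to *Shmt2* than its nearest member, *Mthfd1l* (0.0589), did.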

How the data were processed

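Poly(A) RNA of 4 sorted CD8 T cell populations was made into stranded TruSeq libraries and read as pairs, per the labels' protocols. Per the submitters' processing notes, which give no role or order, the build was mm10 and the tools were R 4.2.2, edgeR, StringTie 2.1.3b, HISAT2 2.1.0, SAMtools 1.9, Trimmomatic 0.38 and FastQC 0.11.7. The sources used here do not give the annotation version, the use of strand in counting or the handling of reads with several matches. The authors deposited 1 unnormalized whole-number read count per gene and library, per the file headers. Beside it stands a TPM value, likewise from the authors, per the file headers. Columns headed ctrl were taken as the groups that the labels call wild type. The smallest count is 1, no row lacked a gene name, and another 18 per-sample columns were left unused.

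Counts were scaled with TMM factors of 1.04, 1.02, 0.996 and 0.946 for the naive and virtual memory libraries of control mice and then of IL-15C mice (edgeR 4.0.16 in R 4.3.3). A prior count of 2 entered each log2 ratio. The 95% intervals of ratios came from the exact binomial (Clopper-Pearson) interval of a library's share of both counts (SciPy 1.17.1), and those of the difference of responses combine the standard errors of the counts. Genes were compared if they had at least 20 reads over the libraries compared and 1 CPM in the highest. The median interval width over all genes was 0.234, 0.238, 0.230 and 0.249 log2 units in the 4 comparisons. The calculation was checked on simulated data. Alternatives were other size factors, prior counts, filters, fold limits and TPM ratios. All 9 members were named in every comparison, and from the 16 other lists the genes with the 3 highest and 3 lowest ratios, with *Rrm2b*, *Tk2*, *Dck*, *Mthfd2l* and *Samhd1*; not all are printed, some genes are not reported here, and *Cmpk2*, *Nudt1* and *Itga4* are given where they complete a count or a check. The members and the lists (157 genes, 137 in the table) were chosen with earlier results of these data known. Exon overlaps were read from the GENCODE annotation of the same assembly as the promoter windows. These windows and the gene positions came from RefSeq tables of GRCm38.p6, in which all 9 members and 15428 of the Entrez IDs were matched.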

Additional observations from a re-analysis of the deposited data

Results flagged for a closer look

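Among 66 genes of nucleotide, folate and serine metabolism, the 9 members included, 5 had IL-15C ratios of opposite sign in the naive and virtual memory subsets, each with an interval on its own side of 0. None of the 5 is a member, and the difference between subsets was not tested, with 1 library per group. *Cad*, the enzyme of the first steps of pyrimidine synthesis, had a log2 ratio of -0.30 in naive and 0.61 in virtual memory cells. *Gart*, a trifunctional purine enzyme that uses formyl-folate, had -0.06 and 0.43. *Impdh1*, the minor isozyme at the branch to GMP, had -0.47 and 0.10. *Ctps2*, a CTP synthase, had 0.11 and -0.25, and *Dguok*, the mitochondrial deoxyguanosine kinase, had 0.24 and -0.22. None of these ratios reached 2-fold, and how many of all genes compared had such opposite signs was not counted. The signs depend in part on scaling. In TPM, *Impdh1* was lower with IL-15C in naive (96.9 to 57.9) and in virtual memory cells (84.4 to 80.5). *Ctps2* was also lower in both (35.3 to 33.1 and 31.3 to 28.1), and *Dguok* was level in naive cells (48.3 and 48.2). *Cad* and *Gart* kept opposite signs in TPM.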

How the results depend on the processing

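No paired analysis was possible because each group had 1 library, and for the same reason no replicate could be left out. The 45 log2 ratios of the members kept their direction in 270 recalculations except for 1 change of sign, *Mthfd1l* between the control subsets (0.04, and -0.01 from TPM), and 0 reversed a call. Their size depended more on scaling than the counting intervals show. Of the 45, 18 fell outside their own interval with TPM, 16 with library totals and 4 with median-of-ratios size factors. The largest move was *Mthfd1* with IL-15C in virtual memory cells, from 0.71 to 0.45 with TPM. Filtering at 5 CPM, or not filtering low counts, changes only which genes are compared. The 45 ratios under each of these settings were therefore bound to stay the same. A limit of 1.5-fold counted 4 members in place of 3 as higher between the control subsets (*Rrm1* added), 6 members in place of 3 as higher between the subsets of IL-15C mice, 9 in place of 5 with IL-15C in virtual memory cells, and, as the square of that limit, 2 in place of 0 for the difference of responses (*Rrm2* and *Tk1*), since the limit is lower. TPM ratios counted 1 there (*Rrm2*). Library totals or TPM gave 4 members in place of 5 with IL-15C in naive cells, and median-of-ratios size factors gave 6 in place of 5 in virtual memory cells (*Shmt1* added). The median of all genes shifted by -0.228 in naive and -0.143 in virtual memory cells with TPM, and by -0.115 in virtual memory cells with library totals. List medians less that of all genes moved in 5 cases. A filter at 5 CPM, which leaves fewer genes, gave 0.54 for serine supply between IL-15C subsets, 0.42 for salvage with IL-15C in naive cells, and 0.55 for purine synthesis and 0.49 for salvage in virtual memory cells. TPM gave 0.92 for deoxynucleotide supply in virtual memory cells, and the cause was not tested. No gene belonged to more than 1 list, so that alternative was not run. TPM also moved the number of lower genes over the whole table from 136 to 267 between control subsets, from 62 to 169 for the difference of responses, and the larger ones there from 7 to 34. Counting error is wide where reads are few, as for *Tk1* in control naive cells (48 reads), and for *Mthfd2l* (23) and *Aldh1l1* (9) in IL-15C virtual memory cells.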

Other observations

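ATF4, a transcription factor of the amino acid response, is known to drive *Mthfd2*, *Shmt2*, *Psat1* and *Phgdh*, and its own transcript and other targets were looked at beside them. *Atf4* was at 154 TPM in control naive, 162 in control virtual memory, 134 in IL-15C naive and 103 in IL-15C virtual memory cells, with IL-15C ratios of 0.04 (-0.01 to 0.09) in naive and -0.50 (-0.56 to -0.45) in virtual memory cells. Of 8 listed genes compared in naive cells, 0 were counted as higher or lower, and of 9 in virtual memory cells 2 were higher, with medians of 0.24 and -0.04. Those were *Trib3* (2.14, 1.70 to 2.70, from 43 and 187 reads) and *Asns*, the asparagine synthetase (4.29-fold, log2 interval 1.63 to 2.72, from 37 and 158 reads), both at low levels. *Ddit3* had a ratio of -0.80 (-0.98 to -0.62) there. *Chac1*, *Slc7a11* and *Vldlr* were not analysed here.

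The rare folate enzyme *Aldh1l1* had 71 reads in naive and 9 in virtual memory cells of mice given IL-15C and was lower in the latter (-2.66, -4.08 to -1.89), the largest ratio in either direction within the folate list in that comparison. *Psat1* was higher there (1.22, 1.17 to 1.28).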
